A study of Mus musculus with 24 samples.

Results

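The genes described here are 10 members of the immune checkpoint family, out of 55401 gene identifiers in the count table. They were chosen by name, with earlier results of these data known. They are the rows whose Ensembl identifier belongs to Cd274, Pdcd1lg2, Cd80, Cd86, Pdcd1, Ctla4, Lag3, Havcr2, Tigit or Ido1 in the GENCODE M21 annotation. All 10 were found, and they fall by role into 4 ligands, 5 receptors and 1 enzyme. RNA was sequenced from 24 tumors of 10 groups, grown in male C57/BL6 mice aged 8 to 10 weeks from TC2Ras, a line of prostate adenocarcinoma cells derived from TRAMP-C2 with activated H-Ras and the androgen receptor added. The study asked how interleukin 27 (IL-27), a cytokine given as a plasmid, and cabozantinib (cabo), an oral inhibitor of VEGF receptors, MET and related kinases, alter tumors in bone and under the skin. The subcutaneous groups were SC control (empty vector) and SC IL-27 (IL-27 vector), with 2 tumors each, taken a week after implantation. The intratibial groups, with luciferase-expressing TC2Ras cells placed in the tibia, were control (empty vector and the vehicle PvP), IL-27 (IL-27 vector and PvP), cabo (empty vector and cabozantinib) and IL-27+cabo (IL-27 vector and cabozantinib). Each was sampled on day 14 (D14, 3 tumors) and at the end of the study (EOS, 2 tumors), when the remaining mice reached their endpoint. The vectors were injected into muscle and carried in with ultrasound, and cabozantinib or PvP was given by mouth for 2 weeks. The day of each EOS harvest was not given in the labels used here. All tumors came from 1 cell line, and the intratibial line also carries luciferase, which the subcutaneous line is not said to carry.

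Immune checkpoints are receptor and ligand pairs that restrain T cells. PD-1 (Pdcd1) on activated T cells is engaged by PD-L1 (Cd274) and PD-L2 (Pdcd1lg2) on tumor cells, macrophages and dendritic cells, while CTLA-4 (Ctla4) competes with the stimulatory receptor CD28 for CD80 and CD86 on antigen-presenting cells. LAG-3 binds MHC class II among other ligands, TIGIT, on T and NK cells, binds the poliovirus receptor, TIM-3 (Havcr2) is carried by T cells and also by macrophages and dendritic cells, and IDO1 is an enzyme that degrades tryptophan and so deprives T cells of it.

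The libraries held 63729005 to 83782258 counts on genes, and 21269 to 24028 genes had a count above 0. The tumor numbers used here are those in the library names, and the labels do not say whether the tumors of a subcutaneous group came from different mice, so the p-values measure the spread between tumors. Tumor 20 of D14 IL-27+cabo had the fewest counts and genes. The 5 epithelial markers that stand for the carcinoma summed to 60.1 to 330 CPM (counts scaled to library size) in all tumors with none at 0. The highest sums were 330 in EOS IL-27+cabo tumor 16 and 248 in D14 IL-27+cabo tumor 20, beside 92.1 to 114 in the D14 controls. Whole tumors were sequenced, so fewer cells of a type and less RNA per cell cannot be told apart in any value given here.

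The ligand genes Cd274 (ENSMUSG00000016496, chr19:29367455-29388095, plus strand) and Pdcd1lg2 (ENSMUSG00000016498, chr19:29410919-29471161, plus strand) lie beside each other on chromosome 19 of GRCm38. Exons of Cd274 overlap AC119228.1 on the other strand by 511 bases, and the sources used here do not say whether the counting used strand, so reads of both could be mixed. Cd80 (ENSMUSG00000075122, chr16:38455561-38496335, plus strand) and Cd86 (ENSMUSG00000022901, chr16:36603869-36666081, minus strand) are the other ligands. The receptors are Pdcd1 (ENSMUSG00000026285, chr1:94038305-94052553, minus strand), Ctla4 (ENSMUSG00000026011, chr1:60887000-60915832, plus strand), Lag3 (ENSMUSG00000030124, chr6:124904361-124911705, minus strand), Havcr2 (ENSMUSG00000020399, chr11:46454935-46481255, plus strand) and Tigit (ENSMUSG00000071552, chr16:43648867-43664146, minus strand). The enzyme gene is Ido1 (ENSMUSG00000031551, chr8:24584136-24597009, minus strand). All values are counts over all exons of these protein-coding genes.

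RefSeq promoters were matched for 7 of the 10 genes, all but Lag3, Cd86 and Ido1. The 250 bases before the RefSeq start (GRCm38.p6) are shown for the 4 of them with an adjusted p under 0.05 in some comparison, each read 5′ to 3′ on the strand of its gene, with matches to the searched motifs in capitals.
Cd274, chr19:29367188-29367437, plus strand: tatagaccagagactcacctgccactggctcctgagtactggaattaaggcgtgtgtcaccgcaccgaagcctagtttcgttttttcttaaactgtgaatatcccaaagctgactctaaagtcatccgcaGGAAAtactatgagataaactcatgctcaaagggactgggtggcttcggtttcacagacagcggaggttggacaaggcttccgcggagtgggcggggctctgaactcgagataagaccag
Cd80, chr16:38458683-38458932, plus strand: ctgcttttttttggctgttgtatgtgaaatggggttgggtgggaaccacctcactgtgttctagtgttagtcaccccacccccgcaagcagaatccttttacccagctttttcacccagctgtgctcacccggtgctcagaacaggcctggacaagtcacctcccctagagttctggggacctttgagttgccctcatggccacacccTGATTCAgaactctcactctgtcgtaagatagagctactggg
Pdcd1, chr1:94052554-94052803, minus strand: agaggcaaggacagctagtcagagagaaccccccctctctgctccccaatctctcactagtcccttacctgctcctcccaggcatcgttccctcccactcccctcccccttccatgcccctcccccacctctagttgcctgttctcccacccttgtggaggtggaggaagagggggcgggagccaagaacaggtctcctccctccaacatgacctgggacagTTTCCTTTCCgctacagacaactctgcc
Ctla4, chr1:60908775-60909024, plus strand: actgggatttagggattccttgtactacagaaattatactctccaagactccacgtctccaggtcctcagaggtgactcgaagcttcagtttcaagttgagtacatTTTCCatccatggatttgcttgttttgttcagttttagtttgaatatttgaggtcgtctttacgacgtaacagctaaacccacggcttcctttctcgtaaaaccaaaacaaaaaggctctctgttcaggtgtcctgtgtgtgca
Motifs were searched on both strands. The core of the NFAT site, GGAAA, began 120 bases before the start of Cd274 and 144 before that of Ctla4, and matched at 28 and 23 bases before the start of Pdcd1, which share no base. It also matched in Tigit at 110 and 13 bases and in Pdcd1lg2 at 22 bases. The AP-1 motif TGANTCA matched 42 bases before the start of Cd80 and 200 before that of Havcr2. The GAS motif TTCNNNGAA, the interferon regulatory factor motif (GAAA repeated with any pair of bases between) and the NF-kB motif (GGGA, any base, TT, any base, CC) matched in none of the 7 windows. Among all 32851 RefSeq promoters, the same length held GGAAA in 55.6%, TGANTCA in 6.75%, TTCNNNGAA in 7.02%, the interferon regulatory factor motif in 2.98% and the NF-kB motif in 0.98%. These are matches of letters, and binding was not measured.

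Compared per length, as CPM per kilobase of exons, Tigit was the most abundant of the 10 genes over the 20 intratibial tumors, with a median of 6.38 and a range of 3.97 to 11.7. The ligand gene Cd274 followed with a median of 4.14 (2.13 to 9.56), then Havcr2 with 3.26 (1.95 to 7.06) and Cd86 with 2.49 (0.372 to 5.06). The receptor genes Pdcd1, Lag3 and Ctla4 had medians of 1.3, 1.09 and 0.495 CPM per kilobase, and each spanned more than 10 times from its lowest to its highest tumor. The ligand genes Cd80 and Pdcd1lg2 had medians of 0.886 and 0.647. Ido1 was the lowest, with a median of 0.18 and 0 counts in 2 of the 20 tumors. In the 4 subcutaneous tumors, which were scaled apart, Cd86 had the highest median at 8.23 CPM per kilobase, followed by Tigit at 5.6 and Cd274 at 4.82, and Ido1 had 0 counts in all 4.

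**Figure D1:**
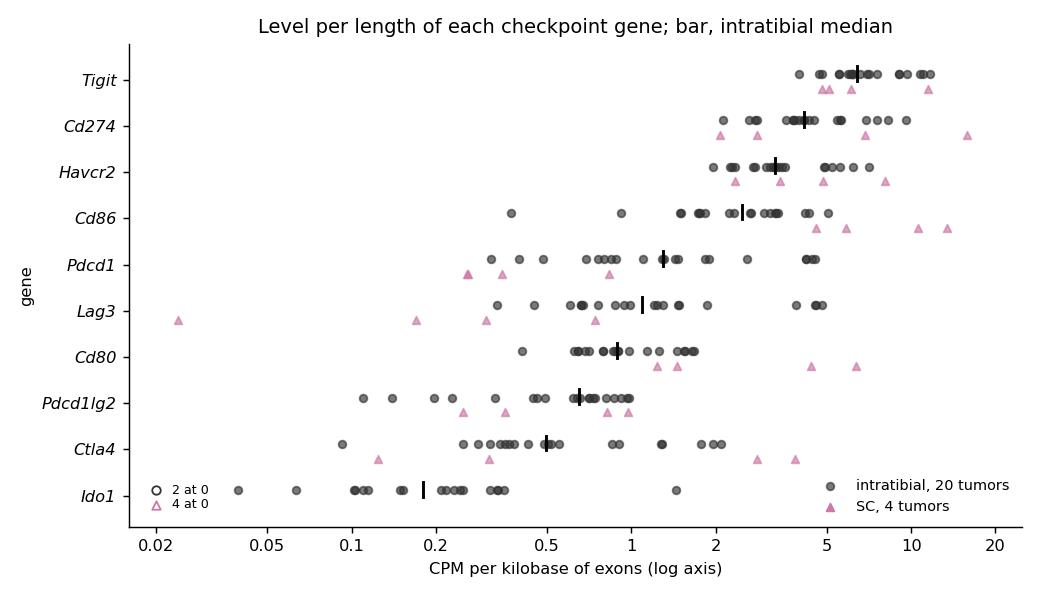
Each point is 1 tumor, placed by its CPM per kilobase of exons on a log axis, with circles for the 20 intratibial tumors, triangles for the 4 subcutaneous (SC) tumors and a bar at the intratibial median; open marks at the left count tumors with 0 counts. Tigit, Cd274, Havcr2 and Cd86 lie highest, with intratibial medians of 6.38, 4.14, 3.26 and 2.49, and Ido1 lies lowest at 0.18.

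The receptors of the lymphocyte lineage were highest in the untreated bone tumors of day 14. Levels of single genes are given from here on as log2 CPM, for comparison between tumors and not between genes. Pdcd1 stood at 3.02, 3.03 and 3.09 in the D14 control tumors 3, 5 and 7, at 2.34, 1.48 and 1.84 in the D14 cabo tumors 21, 25 and 27, and at 1.35, 1.88 and 1.52 in the D14 IL-27+cabo tumors 20, 22 and 24. In the D14 IL-27 tumors 4, 6 and 8, Pdcd1 stood at 3.14, 0.79 and 1.11. The controls and both cabozantinib groups did not overlap, while tumor 4 matched the controls and the other D14 IL-27 tumors were the lowest of day 14.

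Lag3, whose product is another inhibitory receptor of activated T cells, split the tumors in a like way. It stood at 3.35, 3.04 and 3.28 log2 CPM in the D14 controls and at 1.39, 1.35 and 0.53 in D14 cabo. It stood at 1.98, 1.01 and 0.51 in D14 IL-27+cabo and at 3.27, 1.08 and 1.64 in D14 IL-27. Again tumor 4 was level with the controls and all other treated tumors were below them.

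Ctla4, which is carried above all by activated and regulatory T cells, was more spread. Its log2 CPM was 1.59, 1.61 and 2.29 in the D14 controls, 1.1, 2.06 and 0.22 in D14 cabo, and 0.03, 1 and 0.26 in D14 IL-27+cabo. In D14 IL-27 it was 2.2, -0.24 and 0.39. Tumor 25 of D14 cabo lay among the controls, so these groups overlapped, whereas the IL-27+cabo tumors were all below the controls.

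Tigit spanned the narrowest range of the 4 on day 14. It stood at 3.42, 3.35 and 3.15 log2 CPM in the D14 controls and at 2.68, 2.51 and 2.8 in D14 cabo. It stood at 2.6, 2.7 and 2.5 in D14 IL-27+cabo and at 3.32, 2.48 and 2.46 in D14 IL-27. The controls and tumor 4 lay above every other D14 tumor.

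**Figure D2:**
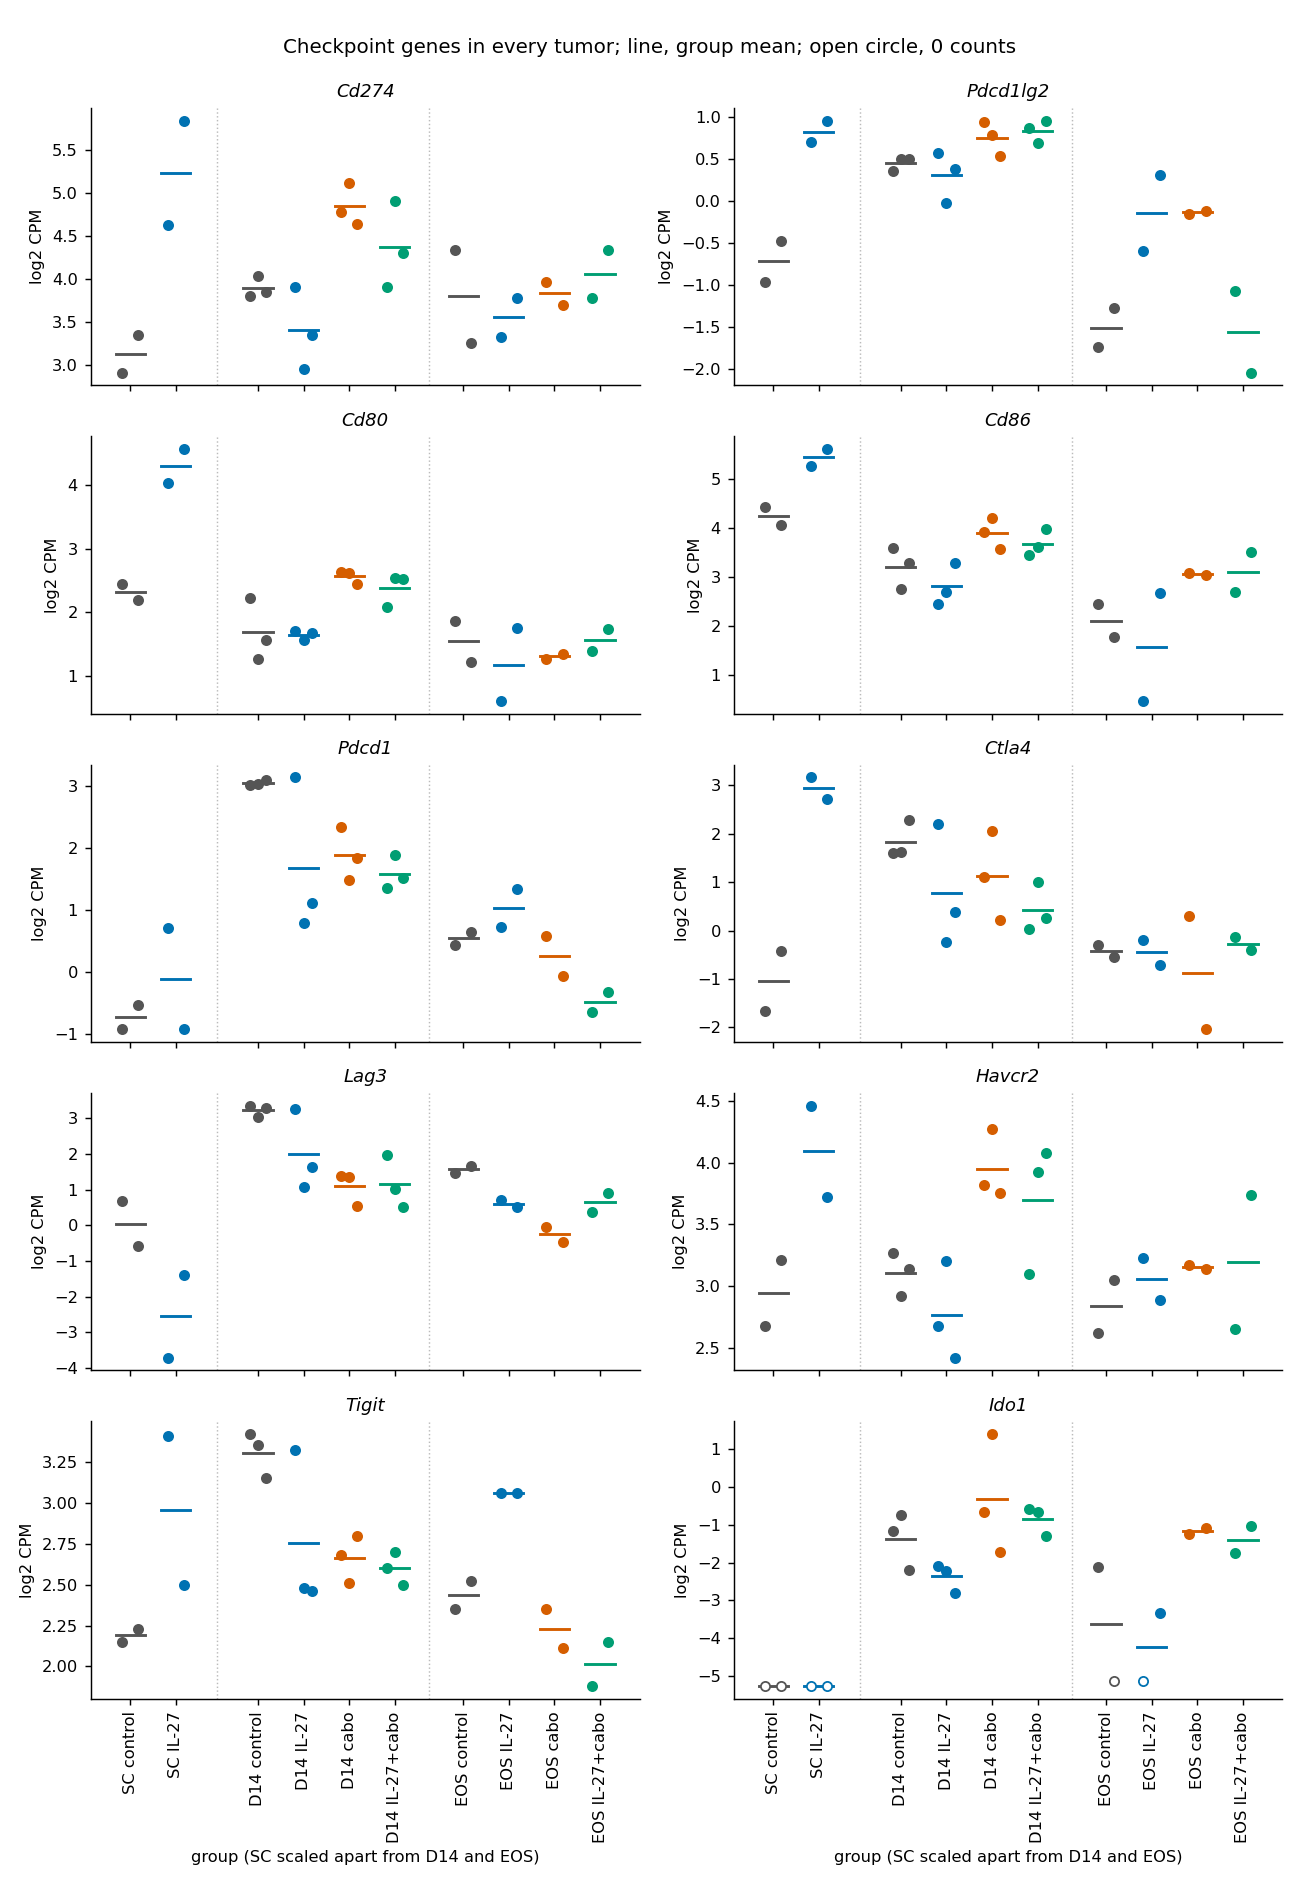
Each panel shows the log2 CPM of 1 gene in every tumor of the 10 groups, with a line at the group mean and open circles for 0 counts; SC tumors were scaled apart from D14 and EOS tumors. In Pdcd1, Lag3, Ctla4 and Tigit, 1 of the 3 D14 IL-27 tumors lies at the level of the D14 controls and the other two lie well below them.

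With cabozantinib, 2 of the 10 genes passed edgeR's quasi-likelihood test at an adjusted p under 0.05 on day 14, 1 higher and 1 lower, where 1.89% of the 18627 genes tested did. Lag3 fell, with a log2 fold change of -2.12 ± 0.26 (SE, n = 3 against 3) and an adjusted p of 0.0107, which is a fold of 0.23. At an unadjusted p under 0.05, 4 members were higher and 3 lower, beside 9.64% and 9.27% of all genes. The call of Lag3 held when any of the 6 tumors was left out, with log2 fold changes from -2.27 to -1.89. Pdcd1 had a log2 fold change of -1.15 ± 0.23 (adjusted p = 0.0559) and Tigit -0.67 ± 0.15 (adjusted p = 0.0711), past an unadjusted p of 0.05 but not the adjusted threshold, and Ctla4 had -0.58 ± 0.45 (adjusted p = 0.537). DESeq2 called 6 members in this comparison, including Pdcd1 (adjusted p = 0.000111) and Tigit (adjusted p = 0.00395). It also called more of all genes, 760 higher and 579 lower of 29107.

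The T cell markers moved with these receptors. The 10 markers, among them the T cell receptor chains and CD3 subunits, summed to 75 to 77.6 CPM in the D14 controls, 21.5 to 31 in D14 cabo and 16.9 to 21.7 in D14 IL-27+cabo. In D14 IL-27 they summed to 75.1 CPM in tumor 4, 10.3 in tumor 6 and 16.4 in tumor 8, and Cd8a or Cd8b1 was at 0 in tumors 6 and 8. With cabozantinib edgeR called 7 of the 10 markers lower and 0 higher, beside 1.89% of all genes called. The median log2 fold change of the 10 was -1.55, beside -0.01 over all genes tested. The 7 were Cd3e, Cd3g, Cd247, Cd2, Cd5, Cd4 and Trac, while the CD8 chains Cd8a (log2 fold change 2.62 ± 0.63, edgeR adjusted p = 0.0859) and Cd8b1 (2.02 ± 0.55, edgeR adjusted p = 0.122) were higher at an unadjusted p under 0.05. DESeq2 called all 10, with Cd8a and Cd8b1 higher and the other 8 lower. The part of the T cell markers in the receptors' levels was not tested.

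Set against the summed T cell markers, the receptors differed. Per 100 CPM of the list, Pdcd1 stood at 10.4, 10.8 and 11.3 CPM in the D14 controls and at 16.2, 9.87 and 16.5 in D14 cabo, which overlap. Lag3 stood at 13.1, 10.9 and 12.9 in the controls and at 8.38, 9.02 and 6.57 in D14 cabo, without overlap (exact two-sided permutation p = 0.1, the smallest that 3 against 3 can give). In D14 IL-27+cabo the ratio of Lag3 stood at 18.1, 9.34 and 8.23, which overlapped with the controls (exact two-sided permutation p = 1). The ratio of Ctla4 was 3.85, 4.01 and 6.5 in the controls and 6.81, 14.9 and 5.28 in D14 cabo, which overlapped. Tigit had the opposite sign to Lag3, at 13.8, 13.5 and 11.8 per 100 CPM of the list in the controls and 20.6, 20.2 and 32.2 in D14 cabo (exact two-sided permutation p = 0.1). For tumor 4 of D14 IL-27 these ratios were 11.7 for Pdcd1, 12.8 for Lag3 and 13.3 for Tigit, each near the controls. These p-values cannot pass an adjustment for the 100 such ratios computed.

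**Figure D3:**
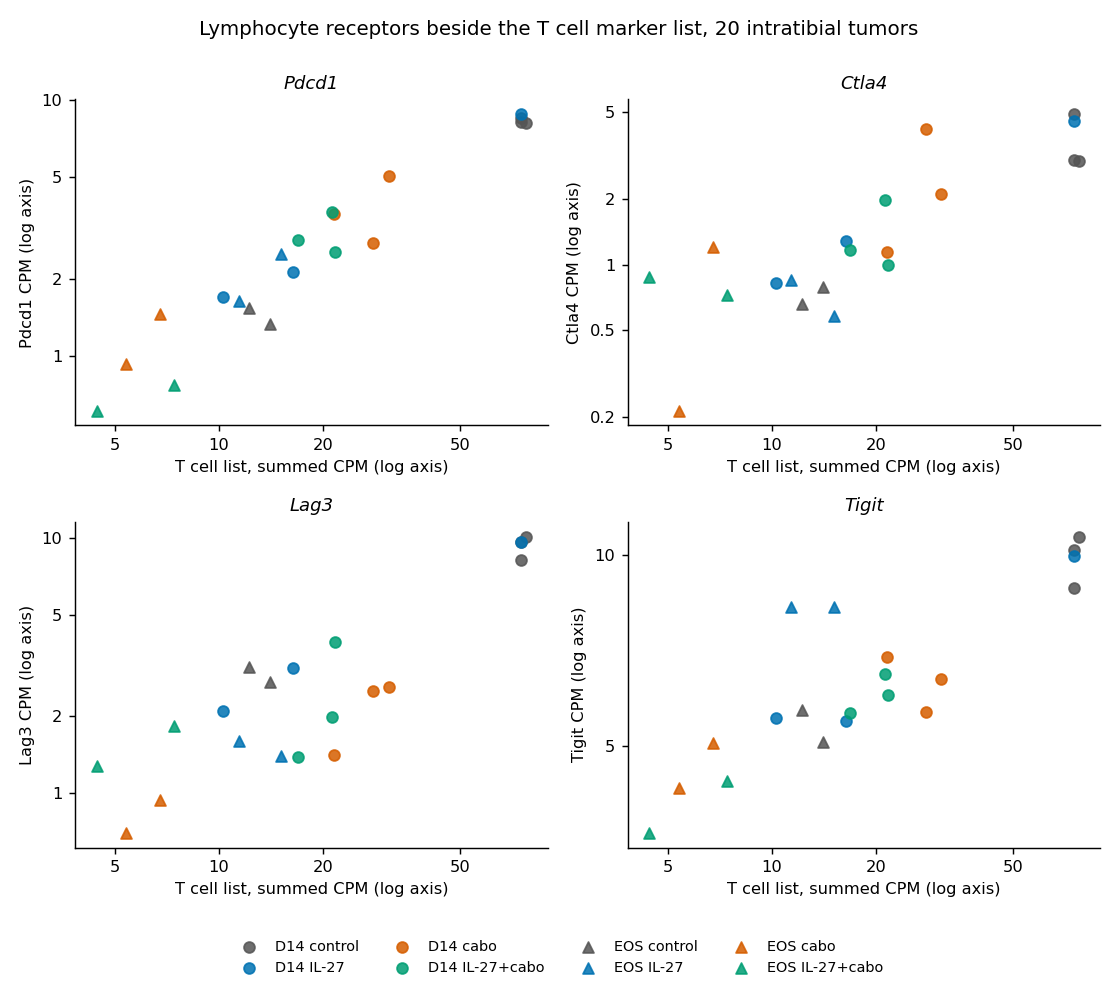
For the 20 intratibial tumors, each panel plots the CPM of 1 receptor gene against the summed CPM of the 10 T cell markers, both on log axes, with circles for D14, triangles for EOS and a color for each treatment. The D14 controls and tumor 4 of D14 IL-27 form the group at the top right, near 75 CPM of T cell markers, and in the Tigit panel both EOS IL-27 tumors lie above other tumors with as few T cell markers.

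Among the ligands, PD-L1 was higher with cabozantinib on day 14. Cd274 stood at 3.8, 4.03 and 3.85 log2 CPM in the D14 controls and at 4.78, 5.12 and 4.64 in D14 cabo, without overlap. It rose with a log2 fold change of 0.94 ± 0.15 (SE, n = 3 against 3, edgeR adjusted p = 0.0265), a fold of 1.92. The call was lost when any tumor other than tumor 5 was left out, with adjusted p-values of 0.0963, 0.0831 and 0.0652 without tumors 21, 25 and 27, 0.0553 without tumor 3 and 0.094 without tumor 7. In D14 IL-27+cabo, Cd274 stood at 3.91, 4.9 and 4.3, and in D14 IL-27 at 3.91, 2.95 and 3.35.

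Havcr2 had the next smallest p among the genes that were higher with cabozantinib. It stood at 3.27, 2.92 and 3.14 log2 CPM in the D14 controls and at 3.82, 4.27 and 3.75 in D14 cabo (log2 fold change 0.83 ± 0.18, edgeR adjusted p = 0.0649, DESeq2 0.000773). In D14 IL-27+cabo, tumor 20 stood at 3.1, level with the controls, and tumors 22 and 24 at 3.92 and 4.08. In D14 IL-27 it stood at 2.68, 3.2 and 2.42.

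The costimulatory ligands Cd80 and Cd86, which serve CD28 as well as CTLA-4, were also higher on average. Cd80 stood at 2.23, 1.27 and 1.57 log2 CPM in the D14 controls, 2.63, 2.62 and 2.44 in D14 cabo and 2.09, 2.54 and 2.52 in D14 IL-27+cabo. Its log2 fold change with cabozantinib was 0.81 ± 0.26 (edgeR adjusted p = 0.164). Cd86 stood at 3.6, 2.75 and 3.29 in the controls and at 3.93, 4.21 and 3.58 in D14 cabo, which overlapped (0.66 ± 0.24, edgeR adjusted p = 0.209). In the D14 IL-27 tumors both genes lay within or below the range of the controls, with Cd80 at 1.71, 1.56 and 1.68 and Cd86 at 2.45, 2.7 and 3.29.

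PD-L2 and IDO1 did not pass even the unadjusted threshold with cabozantinib on day 14. Pdcd1lg2 stood at 0.36, 0.5 and 0.5 log2 CPM in the D14 controls and at 0.94, 0.79 and 0.54 in D14 cabo (log2 fold change 0.3 ± 0.25, edgeR adjusted p = 0.561), so the groups did not overlap but nearly met. Ido1 had 31, 44 and 14 counts in the D14 control tumors and 42, 189 and 19 in D14 cabo. In log2 CPM these were -1.15, -0.74 and -2.21 against -0.66, 1.41 and -1.71, so tumors 21 and 25 lay above every control and tumor 27 did not. The log2 fold change was 1.55 ± 0.82 (edgeR adjusted p = 0.351).

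The other marker lists also moved between these groups. With cabozantinib edgeR called 1.89% of all genes, and 9.64% were higher at an unadjusted p under 0.05. The 9 macrophage markers summed to 503 to 1049 CPM in the D14 controls, 763 to 998 in D14 cabo and 859 to 1384 in D14 IL-27+cabo, with none at 0. With cabozantinib all 9 had a positive log2 fold change, edgeR called 0 of them with 2 higher at an unadjusted p under 0.05, and DESeq2 called 2. The 10 skeletal muscle markers summed to 4.85 to 122 CPM in the D14 controls, where Pvalb was at 0 in some tumor, and to 1048 to 1702 in D14 cabo, where edgeR called 3 of the 10 higher. In D14 IL-27+cabo they summed to 1400 to 4237 CPM, and in D14 IL-27 to 24.7, 60.4 and 1810 in tumors 4, 6 and 8. The 6 endothelial markers summed to 217 to 306 CPM in the D14 controls, 143 to 163 in D14 cabo and 72.4 to 138 in D14 IL-27+cabo, none at 0. With cabozantinib all 6 had a negative log2 fold change and edgeR called 2, Kdr (-1.56 ± 0.28) and Emcn (-2.7 ± 0.24), while DESeq2 called 4. Per 100 CPM of the macrophage list, Cd274 stood at 1.33, 3.24 and 2.63 CPM in the D14 controls and at 3.4, 3.47 and 3.27 in D14 cabo, without overlap (exact two-sided permutation p = 0.1). In D14 IL-27+cabo it stood at 1.08, 3.47 and 2.12, which overlapped with the controls (exact two-sided permutation p = 0.8). Per 100 CPM of the same list, Cd80 and Havcr2 in D14 cabo did not overlap with the controls (exact two-sided permutation p = 0.1 for both), and Cd86 (p = 0.2) and Pdcd1lg2 (p = 0.8) did. The 8 dendritic cell markers summed to 20.7 to 30.2 CPM in the D14 controls and 21.9 to 30.6 in D14 cabo, none at 0. Of these markers edgeR called only Ccr7 with cabozantinib, which was higher (1.26 ± 0.21, adjusted p = 0.0329). The part of macrophages, dendritic cells, endothelium and muscle in the ligands' levels was not tested.

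**Figure D4:**
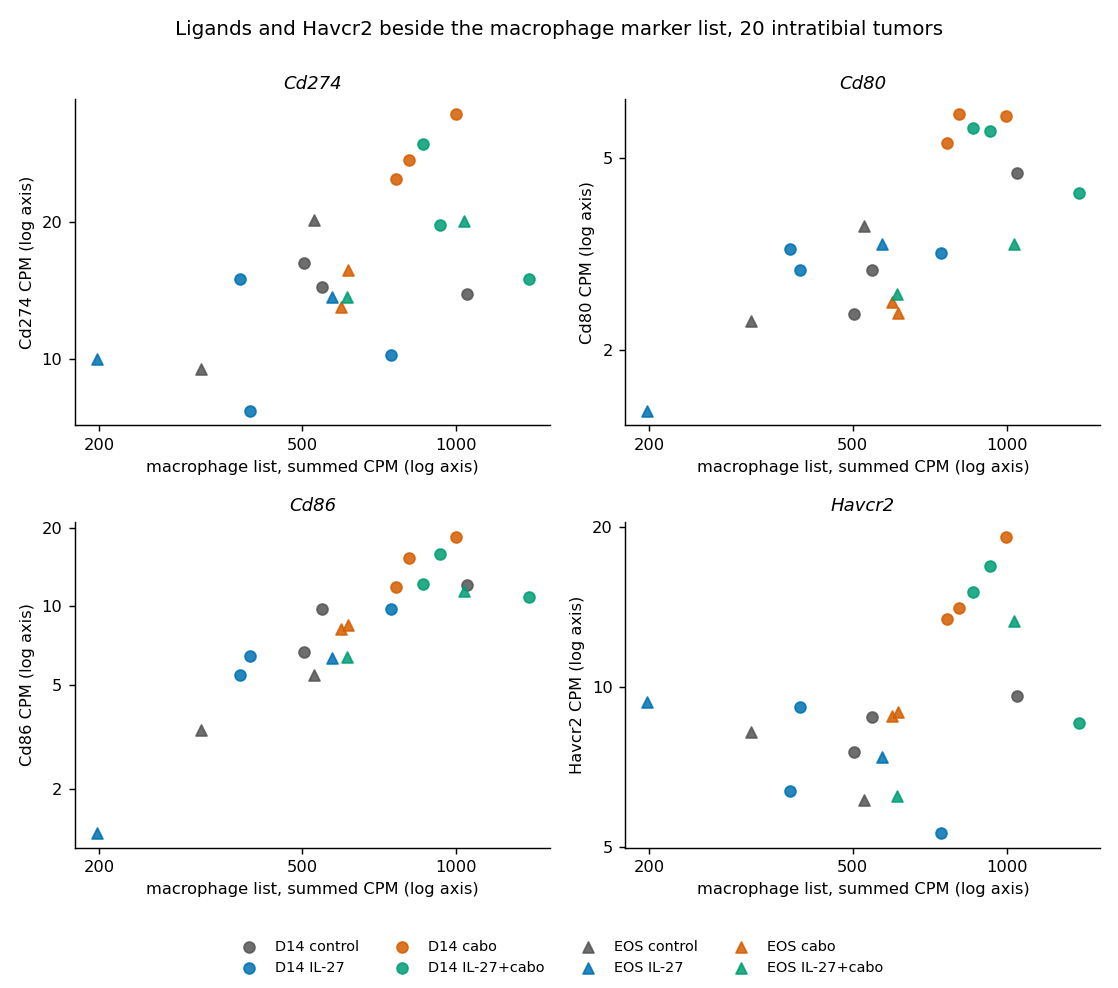
For the 20 intratibial tumors, each panel plots the CPM of Cd274, Cd80, Cd86 or Havcr2 against the summed CPM of the 9 macrophage markers, on log axes, with circles for D14, triangles for EOS and a color for each treatment. The D14 cabo tumors lie at 763 to 998 CPM of macrophage markers, and D14 control tumor 3, with the most macrophage markers of the controls, lies below them in Cd274, Cd80 and Havcr2.

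IL-27 alone gave no call on day 14. All 10 genes had a negative log2 fold change against the controls, from -1.19 for Ido1 to -0.08 for Cd80, and none passed the adjusted or the unadjusted threshold of 0.05 with edgeR or the adjusted threshold with DESeq2. Over all genes, 0.0% were called and 2.76% had an unadjusted p under 0.05. The receptors' fold changes, such as -0.96 ± 0.58 for Pdcd1 and -0.91 ± 0.52 for Lag3, had standard errors above those of the comparison of D14 cabo, and tumor 4 lay apart from tumors 6 and 8 in each receptor but Havcr2.

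With IL-27+cabo, edgeR called 0 of the 10 genes against the D14 controls, beside 0.064% of all genes, and 4 receptors were lower at an unadjusted p under 0.05, beside 1.97% of all genes. These were Pdcd1 (log2 fold change -1.45 ± 0.28, adjusted p = 0.181), Lag3 (-1.91 ± 0.45, adjusted p = 0.286), Ctla4 (-1.39 ± 0.42, adjusted p = 0.495) and Tigit (-0.7 ± 0.24, adjusted p = 0.633). DESeq2 called 2 of them, Pdcd1 and Lag3, beside 290 higher and 155 lower of all 29340 genes it was given. Without tumor 20, the library with the fewest counts, edgeR called the same 2 genes, with adjusted p-values of 0.0448 for Pdcd1 and 0.017 for Lag3. In that fit it also called more of all genes, 93 higher and 82 lower of 19456. The ligands were not called, and Cd274 had a log2 fold change of 0.54 ± 0.29 (edgeR adjusted p = 0.807).

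The tests of the difference between treatments gave no call. IL-27+cabo against cabo alone left every member above an unadjusted p of 0.05 with edgeR and DESeq2 called 0 as well, beside 0.0% and 1.92% of all genes called and past the unadjusted threshold, and the differences ran from -1.07 ± 0.84 for Ido1 to 0.21 ± 0.49 for Lag3. IL-27+cabo against IL-27 alone had 4 genes higher at an unadjusted p under 0.05, beside 3.17% of all genes, namely Cd274 (0.95 ± 0.38), Havcr2 (0.94 ± 0.38), Cd86 (0.83 ± 0.34) and Ido1 (1.64 ± 0.63), each with an edgeR adjusted p of 0.916, and DESeq2 called 0. The interaction of the treatments, which asks whether their changes add on the log scale, was -0.00 ± 0.41 for Cd274 and 1.09 ± 0.78 for Lag3, and with 0.0% of all genes called and 1.88% past the unadjusted threshold no member passed an unadjusted p of 0.05 or DESeq2's adjusted threshold. The day 14 comparisons share tumors, so their fold changes are not independent of each other.

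At the end of the study PD-1 was lower than on day 14 in the control tumors. Pdcd1 stood at 0.44 and 0.65 log2 CPM in the EOS control tumors 9 and 13, against 3.02 to 3.09 in the D14 controls. It fell with a log2 fold change of -2.52 ± 0.24 (SE, n = 2 against 3, edgeR adjusted p = 0.0256), the only member called, beside 0.104% of all genes. At an unadjusted p under 0.05, 6 members were lower, beside 7.22% of all genes. The adjusted p rose to between 0.0967 and 0.284 when any of the 5 tumors was left out, while the log2 fold change stayed between -2.63 and -2.42.

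Of the other receptors, Lag3 stood at 1.47 and 1.66 log2 CPM in the EOS controls (log2 fold change -1.67 ± 0.23, edgeR adjusted p = 0.067). Ctla4 stood at -0.29 and -0.54 (-2.32 ± 0.37, edgeR adjusted p = 0.108) and Tigit at 2.35 and 2.52 (-0.88 ± 0.21, edgeR adjusted p = 0.197). None of these overlapped with the D14 controls, but 2 against 3 tumors can give no exact two-sided permutation p below 0.2. The share of all genes without overlap was not counted. Havcr2 stood at 2.62 and 3.05 and did overlap (-0.27 ± 0.23, edgeR adjusted p = 0.652). DESeq2 called 6 members, all lower, which were Pdcd1, Lag3, Ctla4, Tigit, Pdcd1lg2 and Cd86. Over all 28647 genes it called 253 higher and 560 lower.

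Among the ligands, Pdcd1lg2 stood at -1.74 and -1.27 in the EOS controls, with 19 and 28 counts, against 0.36 to 0.5 in the D14 controls (-2.02 ± 0.42, edgeR adjusted p = 0.166). Cd86 stood at 2.46 and 1.77 (-1.1 ± 0.34, edgeR adjusted p = 0.265). Cd274 stood at 4.34 and 3.26, on both sides of the D14 controls, with a log2 fold change of 0.01 ± 0.31. Ido1 had 14 counts in tumor 9 and 0 in tumor 13. The T cell markers summed to 12.2 to 14.1 CPM at EOS, with Cd8a and Cd8b1 at 0 in some tumor. EdgeR called 6 of the 10 lower, beside 0.104% of all genes, while the macrophage markers summed to 316 to 526 CPM. Among the regulatory T cell markers edgeR called Ikzf2 lower (-2.75 ± 0.31, adjusted p = 0.0455). Per 100 CPM of T cell markers, Pdcd1 stood at 9.47 and 12.6 in the EOS controls, which overlapped with 10.4 to 11.3 in the D14 controls. Ctla4, at 5.6 and 5.39, overlapped too. Lag3 (19.5 and 25.5 against 10.9 to 13.1) and Tigit (36.2 and 46.5 against 11.8 to 13.8) were higher without overlap (exact two-sided permutation p = 0.2 for both). The part of these marker lists in the differences was not tested.

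With cabozantinib alone PD-L1 and CD80 were lower at EOS than on day 14. Cd274 stood at 3.97 and 3.7 log2 CPM in the EOS cabo tumors 19 and 23, against 4.64 to 5.12 on day 14, and fell by 0.99 ± 0.17 (SE, n = 2 against 3, edgeR adjusted p = 0.0445). Cd80 stood at 1.27 and 1.35, against 2.44 to 2.63, and fell by 1.24 ± 0.18 (edgeR adjusted p = 0.0269). These 2 genes were called, beside 2.09% of all genes, and 7 of the 10 were lower at an unadjusted p under 0.05, beside 9.53% of all genes. Leaving out any of the 5 tumors raised the adjusted p above 0.05 for both, to between 0.0601 and 0.21 for Cd274 and between 0.0648 and 0.125 for Cd80.

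None of the other 8 genes passed the adjusted threshold with edgeR. Havcr2 stood at 3.17 and 3.14 in EOS cabo (-0.79 ± 0.18, edgeR adjusted p = 0.0873), Pdcd1 at 0.58 and -0.06 (-1.64 ± 0.36, edgeR adjusted p = 0.0775) and Lag3 at -0.04 and -0.46 (-1.38 ± 0.37, edgeR adjusted p = 0.129). Ctla4 had 88 counts in tumor 19 and 15 in tumor 23 (-1.77 ± 0.81, edgeR adjusted p = 0.318). Tigit stood at 2.35 and 2.11 (-0.41 ± 0.18, edgeR adjusted p = 0.289), and Ido1, at -1.24 and -1.08, lay within its D14 cabo range (-1.45 ± 0.92, edgeR adjusted p = 0.475). The T cell markers summed to 5.37 to 6.74 CPM, with Cd3g and Cd8a at 0 in some tumor, and the skeletal muscle markers to 104 to 781 CPM. The endothelial markers summed to 295 to 362 CPM, against 143 to 163 on day 14, and edgeR called Pecam1 (1.02 ± 0.18), Kdr (1.45 ± 0.26), Flt1 (1.7 ± 0.16) and Emcn (3.31 ± 0.22) higher. Of the macrophage markers, which summed to 596 to 614 CPM, edgeR called Mrc1 lower (-0.88 ± 0.09). Per 100 CPM of T cell markers, Pdcd1 stood at 21.7 and 17.3 in EOS cabo against 9.87 to 16.5 on day 14. Lag3 stood at 14 and 13.1 against 6.57 to 9.02, so both ratios were higher without overlap (exact two-sided permutation p = 0.2). Per 100 CPM of macrophage markers, Cd274 (2.55 and 2.17 against 3.27 to 3.47) and Cd80 (0.389 and 0.422 against 0.612 to 0.766) were lower without overlap. The part of these lists was not tested. By the methods, dosing lasted the first 2 weeks, so time since dosing and time since implantation cannot be told apart here.

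Whether cabozantinib's change differed between D14 and EOS was tested over all intratibial tumors. Cd80 had the smallest p, with a difference of -1.1 ± 0.5 in log2 fold change (unadjusted p = 0.0426 and adjusted p = 1 with edgeR), and for Cd274 the difference was -1.02 ± 0.5 (edgeR adjusted p = 1). No member was called by edgeR or DESeq2, beside 0.0788% of all genes called with edgeR and 2.06% lower at an unadjusted p under 0.05. For IL-27 the differences with an unadjusted p under 0.05 were 1.61 ± 0.55 for Pdcd1lg2 and 1.13 ± 0.37 for Tigit (edgeR adjusted p = 1 for both, beside 1.01% of all genes past the unadjusted threshold and higher). For IL-27+cabo no member passed the unadjusted threshold, which 9.14% of all genes did, and DESeq2 called 0.

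Among the EOS groups Tigit had its highest mean in IL-27. It was at 3.06 in both EOS IL-27 tumors, 10 and 12, above 2.35 and 2.52 in the EOS controls and 1.88 to 2.35 in the EOS groups with cabozantinib. Its log2 fold change against the EOS controls was 0.61 ± 0.22 (unadjusted p = 0.0272, edgeR adjusted p = 1). The T cell markers of the same tumors summed to 11.4 to 15.1 CPM, beside 12.2 to 14.1 in the EOS controls. Pdcd1lg2 was at -0.59 and 0.31 in EOS IL-27 (1.48 ± 0.57, unadjusted p = 0.0336, edgeR adjusted p = 1) and level with it in EOS cabo, at -0.15 and -0.11 (1.42 ± 0.57, unadjusted p = 0.039, edgeR adjusted p = 0.535). Lag3 in EOS IL-27 was at 0.7 and 0.51 (-0.97 ± 0.34, unadjusted p = 0.0214, edgeR adjusted p = 1).

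Lag3 had a lower mean in each treated EOS group than in the EOS controls. Against the EOS controls it had a log2 fold change of -1.84 ± 0.35 with cabo (unadjusted p = 0.000883, edgeR adjusted p = 0.404, DESeq2 0.00546) and -0.92 ± 0.34 with IL-27+cabo (unadjusted p = 0.0265, edgeR adjusted p = 0.294). In the EOS IL-27+cabo tumors 16 and 28 it stood at 0.38 and 0.9, and Pdcd1 at -0.65 and -0.33 (-1.07 ± 0.4, unadjusted p = 0.0299, edgeR adjusted p = 0.303). EdgeR called no gene at all among the 20026 tested in any of these 3 comparisons, while 3.25%, 8.9% and 14.2% had an unadjusted p under 0.05 for IL-27, cabo and IL-27+cabo. DESeq2 called no member for IL-27 or IL-27+cabo. All 3 share the same 2 control tumors. The T cell markers summed to 12.2 to 14.1 CPM in the EOS controls, 5.37 to 6.74 in EOS cabo and 4.42 to 7.43 in EOS IL-27+cabo. Per 100 CPM of them, Lag3 stood at 19.5 and 25.5 in the controls, 14 and 9.24 in IL-27 and 14 and 13.1 in cabo. In IL-27+cabo it stood at 28.8 and 24.8, which overlapped with the controls. Pdcd1 stood at 9.47 and 12.6 in the controls and 13.8 and 10.3 in IL-27+cabo, which overlapped too. The part of the T cell markers was not tested.

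The remaining comparisons of EOS with D14 gave no call by edgeR. In the IL-27 groups, 1 member was lower at an unadjusted p under 0.05, Lag3 (-1.71 ± 0.68, edgeR adjusted p = 0.818), beside 3.08% of all genes, and DESeq2 called 0. In the IL-27+cabo groups, Pdcd1lg2 (-2.43 ± 0.61, edgeR adjusted p = 0.656) and Pdcd1 (-2.15 ± 0.47, edgeR adjusted p = 0.55) were lower at an unadjusted p under 0.05, beside 2.79% of all genes, and DESeq2 called both. Cd274 stood at 3.78 and 4.34 at EOS, within its D14 range (-0.36 ± 0.4, edgeR adjusted p = 0.925), and Cd80 at 1.4 and 1.74 (-0.84 ± 0.39, edgeR adjusted p = 0.925). Pdcd1lg2 had 33 and 16 counts in the EOS IL-27+cabo tumors and 96, 117 and 136 on day 14. Over the 4 comparisons of EOS with D14, which share no tumors, 7 genes (Pdcd1lg2, Cd80, Cd86, Pdcd1, Ctla4, Lag3 and Ido1) had a negative log2 fold change in each, and Cd274, Havcr2 and Tigit did not. Some of these changes were smaller than their SE, such as Cd80 in the controls (-0.16 ± 0.38) and Pdcd1lg2 in IL-27 (-0.41 ± 0.47). The share of all genes with a negative sign in each was not counted.

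**Figure D5:**
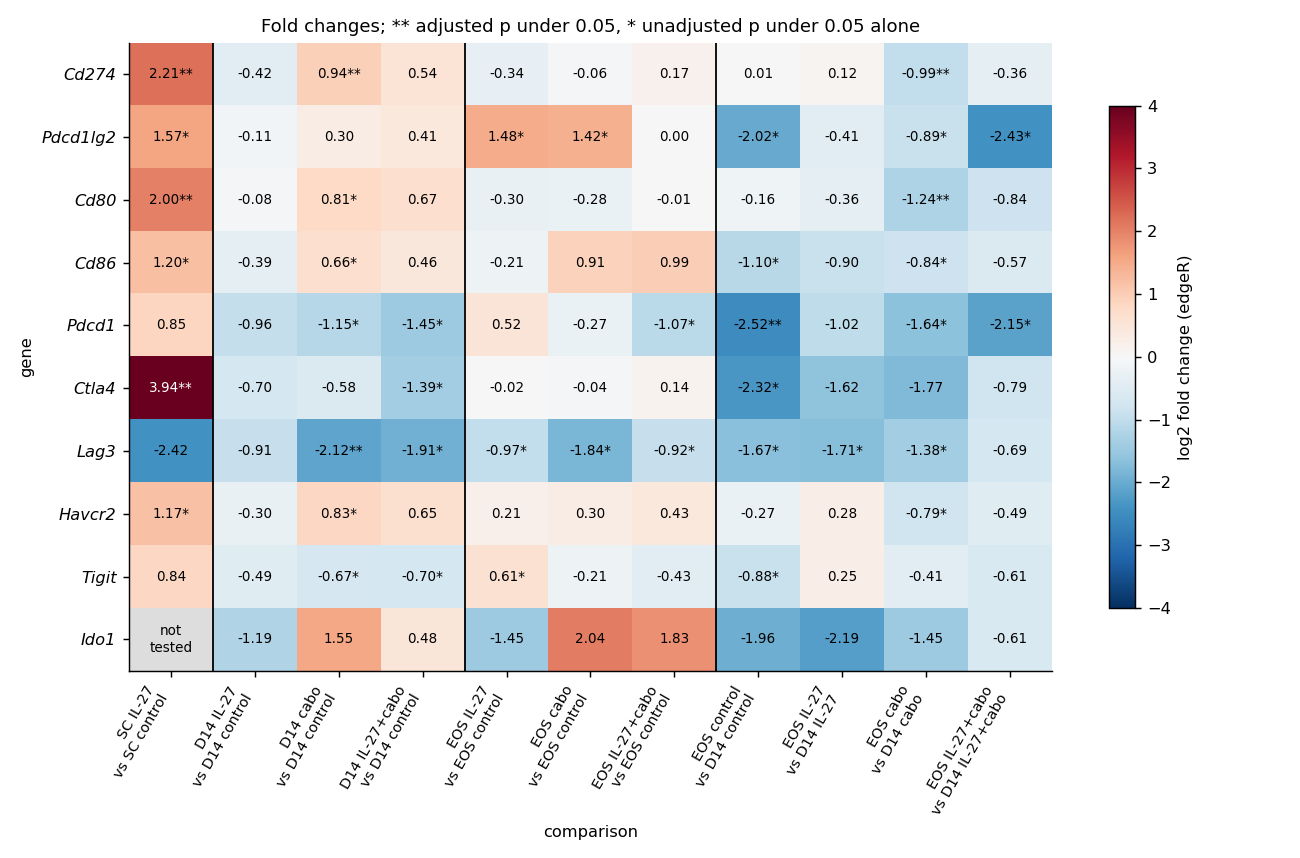
The log2 fold changes from edgeR of the 10 genes (rows) in 11 comparisons (columns), colored from blue for lower to red for higher, with ** for an adjusted p under 0.05 and * for an unadjusted p under 0.05 alone. Pdcd1 and Lag3 are lower in every comparison of EOS with D14, and Cd274 is called higher in SC IL-27 and D14 cabo and lower in EOS cabo against D14 cabo.

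In the subcutaneous tumors IL-27 was accompanied by higher ligands and CTLA-4. EdgeR called 3 of the 9 genes tested, all higher, where it called 20% of the 19360 genes tested. Ido1 had 0 counts in all 4 tumors and was not tested. Ctla4 stood at -1.67 and -0.42 log2 CPM in the SC control tumors 1 and 2 and at 3.16 and 2.72 in the SC IL-27 tumors 1 and 2. It rose with a log2 fold change of 3.94 ± 0.65 (SE, n = 2 against 2, edgeR adjusted p = 0.00679), from 23 and 53 counts to 704 and 513.

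Both ligands of the PD-1 receptor were higher on average, and PD-L1 was called. Cd274 stood at 2.91 and 3.35 in SC control and at 4.63 and 5.84 in SC IL-27, and rose with a log2 fold change of 2.21 ± 0.49 (edgeR adjusted p = 0.0215). Pdcd1lg2 stood at -0.96 and -0.47 against 0.71 and 0.95 (1.57 ± 0.63, edgeR adjusted p = 0.124). Among the CTLA-4 ligands, Cd80 stood at 2.44 and 2.2 against 4.02 and 4.56 and rose (2.00 ± 0.41, edgeR adjusted p = 0.0155). Cd86 stood at 4.43 and 4.06 against 5.28 and 5.62 (1.2 ± 0.34, edgeR adjusted p = 0.0507). None of these groups overlapped, but 2 against 2 tumors can give no exact two-sided permutation p below 0.333. The share of all genes without overlap was not counted.

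The other receptors did not move as one in the subcutaneous tumors. Havcr2 stood at 2.68 and 3.21 in SC control and at 4.46 and 3.72 in SC IL-27 (1.17 ± 0.44, edgeR adjusted p = 0.108). Tigit stood at 2.15 and 2.23 against 3.41 and 2.5 (0.84 ± 0.48, edgeR adjusted p = 0.258), and Pdcd1 at -0.92 and -0.53 against 0.71 and -0.93, which overlapped. Lag3 had the opposite sign, with 125 and 47 counts in SC control and 4 and 28 in SC IL-27 (-2.42 ± 1.1, edgeR adjusted p = 0.165). Without SC IL-27 tumor 2 its adjusted p was 0.0262, a fit with 1 tumor of 4 counts in that group, whose spread is taken from the SC controls. Counted at an unadjusted p under 0.05, 6 of the 9 were higher and 0 lower, beside 12.3% and 23.1% of all genes. DESeq2 called 5, adding Cd86 and Havcr2, beside 2054 higher and 3866 lower of all 27455 genes.

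Correcting the subcutaneous libraries for trends with GC content and transcript length shifted the median log2 fold change of all genes from 0.04 to -0.32. Under it Ctla4 remained called (2.83, edgeR adjusted p = 0.0273), and Cd274 (1.36, edgeR adjusted p = 0.0998) and Cd80 (0.87, edgeR adjusted p = 0.19) did not. The value of Lag3 turned to 0.14 under it. Ctla4 was also called when any of the 4 tumors was left out, which leaves 1 tumor in a group, assumed to vary like the other group. The call of Cd274 was lost without SC IL-27 tumor 2 (1.47, edgeR adjusted p = 0.117), SC control tumor 1 (edgeR adjusted p = 0.142) or SC control tumor 2 (edgeR adjusted p = 0.0627), and that of Cd80 without SC IL-27 tumor 2 (edgeR adjusted p = 0.0628) or SC control tumor 1 (edgeR adjusted p = 0.0643).

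Several cell types' markers moved in the subcutaneous tumors too, where edgeR called 20% of all genes and 12.3% were higher at an unadjusted p under 0.05. T cell markers summed to 11.2 to 11.9 CPM in SC control and 32.6 to 39.1 in SC IL-27, none at 0, and 3 of the 10 rose. The 4 regulatory T cell markers summed to 2.68 to 6.49 CPM, with Ccr8 at 0 in some tumor, against 16.5 to 17.6, and 1 of the 3 tested, Il2ra, rose. Per 100 CPM of T cell markers, Ctla4 stood at 2.57 and 6.04 in SC control and at 22.8 and 20.1 in SC IL-27. Macrophage markers summed to 1207 to 1409 CPM and 1049 to 1500, with Cd68, C1qa and C1qb falling, and the 6 marrow myeloid markers to 0.878 to 2.01, with Ltf and Mpo at 0 in some tumor, against 37.2 to 39.3. The skeletal muscle markers summed to 2.72 to 11.3 CPM, with Ckm, Mb and Myh1 at 0 in some tumor, against 359 to 989. The 6 NK cell markers summed to 16.9 to 19.1 CPM against 36.4 to 65.1, none at 0, and edgeR called Klrk1 (2.09 ± 0.39) and Gzma (3.76 ± 0.74) higher and Prf1 lower (-2.22 ± 0.45), while DESeq2 called all 6. The endothelial markers summed to 293 to 359 CPM against 414 to 877, and edgeR called 0 of 6, with 5 higher at an unadjusted p under 0.05, and DESeq2 5. EdgeR also called the B cell marker Ms4a1 (4.18 ± 0.83) and the dendritic cell marker Cd209a (2.77 ± 0.46) higher. It called the dendritic cell marker Flt3 (-1.93 ± 0.4) and the epithelial marker Krt8 (-3.81 ± 0.69) lower. The part of these cells in the checkpoint genes' levels was not tested.

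Their partners in T cell stimulation were described from a list of 30 further receptors and ligands. In SC IL-27 against SC control, 6 of the 29 tested rose and 1 fell, where edgeR called 20% of all genes. Of all 19360 genes tested, 682 rose and 3198 fell. The ones that rose were the costimulatory receptors Cd28 (log2 fold change 2.69 ± 0.54), Icos (3.26 ± 0.57) and Cd226 (2.47 ± 0.62), the inhibitory receptor Btla (3.60 ± 0.68), and Cd200 (1.81 ± 0.46) and Tnfsf18 (3.80 ± 1.08), with edgeR adjusted p-values from 0.00858 to 0.0499. Nectin2, a ligand shared by Cd226 and Tigit, fell (-2.32 ± 0.43). The median over the list was 0.63, beside 0.04 over all genes.

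In D14 cabo against D14 control 0 of the 29 partners rose and 3 fell, beside 1.89% of all genes called. Those that fell were Btla (-2.04 ± 0.34), Cd200 (-1.57 ± 0.23) and Cd40lg (-2.28 ± 0.39). The median over the list was -0.07, beside -0.01 over all genes. In EOS control against D14 control only Btla was called (-3.41 ± 0.37), beside 0.104% of all genes. In EOS cabo against D14 cabo, with 2.09% of all genes called, Cd200 rose (1.46 ± 0.25). Cd226 fell to 0 counts in both EOS cabo tumors, so no size is given for it. In D14 IL-27 and D14 IL-27+cabo against D14 control, 0 partners were called by edgeR, and DESeq2 called 0 and 3. At an unadjusted p under 0.05, 4 and 5 were lower, beside 342 of 18519 and 369 of 18750 genes.

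Signal relays of these receptors and of interferon gamma were a list of 15 genes. In D14 cabo against D14 control, 2 of 15 fell, the T cell kinases Lck (-1.35 ± 0.16) and Zap70 (-2.21 ± 0.26), and 0 rose, beside 1.89% of all genes called. In EOS control against D14 control, Zap70 fell (-2.83 ± 0.27, edgeR adjusted p = 0.0256), beside 0.104% of all genes called. In EOS cabo against D14 cabo Jak2 (-0.69 ± 0.09) and Lck (-1.19 ± 0.21) fell, beside 2.09% of all genes called. In SC IL-27 against SC control, Ifng rose (5.39 ± 1.41) and Ifngr2 (-1.56 ± 0.33), Pik3cd (-2.43 ± 0.39) and Zap70 fell, so that 4 of 15 were called by edgeR, beside 20% of all genes, and 8 by DESeq2. Zap70 had 0 counts in both SC IL-27 tumors, so no size is given for it. Ifng had 0 counts in SC control tumor 1, so its size is uncertain. Of the 7 other enzymes of tryptophan breakdown, Kmo rose in SC IL-27 (2.74 ± 0.45). In D14 cabo 0 of the 6 tested were called, DESeq2 called 0, and 2 were higher at an unadjusted p under 0.05, beside 9.64% of all genes.

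The 8 intratibial groups were ranked by the mean of each gene. Of the 7 neighbouring pairs of groups in that order, 0 differed by more than the sum of their SDs for Cd274, Cd80, Cd86 and Havcr2, and 3 did for Pdcd1lg2, the most of any member. Pdcd1lg2 stood highest in D14 IL-27+cabo (0.84 ± 0.14, SD, n = 3) and D14 cabo (0.76 ± 0.2) and lowest in EOS control (-1.5 ± 0.33, n = 2) and EOS IL-27+cabo (-1.55 ± 0.68). For Pdcd1, 2 of the 7 pairs were apart, D14 control (3.05 ± 0.04) from D14 cabo (1.89 ± 0.43), and EOS cabo (0.26 ± 0.45) from EOS IL-27+cabo (-0.49 ± 0.22). For Tigit, D14 control (3.31 ± 0.14) was apart from EOS IL-27, the next group. For Lag3, EOS cabo (-0.25 ± 0.29) was apart from EOS IL-27 (0.61 ± 0.14). For Ctla4, D14 IL-27+cabo (0.43 ± 0.51) was apart from EOS IL-27+cabo (-0.27 ± 0.19). For Ido1, EOS IL-27+cabo (-1.39 ± 0.49) was apart from D14 IL-27 (-2.37 ± 0.38). The SDs rest on 2 or 3 tumors and the share over all genes was not counted, so these counts are a description.

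The genes whose log2 CPM was most like each member's over the 20 intratibial tumors differed by role. Pearson's r is given as a description, since tumors of a group and the high T cell markers of the D14 controls and tumor 4 are shared by all points. Pdcd1 was most like Cd247 (r = 0.954) and Trac (0.935), which encode T cell receptor chains, and then Gimap3 (0.928). Lag3 was most like Lck (0.938), Trbc1 (0.93) and Trbc2 (0.907). Ctla4 was most like Icos (0.931), Zfp831 (0.901) and Apol7e (0.9), and Tigit most like Cxcr5 (0.921), Tox (0.889) and Cd247 (0.888). Cd86 was most like the myeloid receptors Clec7a (0.96) and Fcgr3 (0.956), and then Plbd1 (0.935). Ido1 was most like Fcgr4 (0.859), Slc15a3 (0.855) and Cyp4f18 (0.855).

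Cd274 had other neighbours than the remaining ligands. Its nearest genes were Lox (r = 0.929), Ltbp2 (0.924) and Col5a2 (0.891), which encode an enzyme and proteins of the extracellular matrix. Cd80 was nearest Hk3 (0.889), Csf2rb2 (0.885) and Gpr132 (0.885), and Pdcd1lg2 nearest Mchr1 (0.908), Aldh1l1 (0.896) and Trdc (0.843). The receptor gene Havcr2 was nearest Man2b1 (0.866), AI839979 (0.848) and Rnf150 (0.842).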

How the data were processed

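RNA of 24 tumors was sequenced from poly(A) libraries made with a stranded kit. The authors deposited raw counts per Ensembl gene for all tumors in 1 table. The processing notes name FastQC, HISAT2, StringTie, DESeq2 and the build GRCh38, a human build, although the gene identifiers are those of mouse. The counting program and its use of strand are not given in the sources used here. Of 55401 identifiers, 55141 were in GENCODE M21 (GRCm38), which gave symbols, loci and exon lengths, and 260 were not. Between 30.4% and 35.5% of the values from 1 to 20 in a library were multiples of 4, so the deposited counts may not be single reads, and counts divided by 4 were tried as an alternative.

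Subcutaneous and intratibial tumors were normalized apart. Genes were filtered with filterByExpr, scaled by TMM and tested with edgeR 4.0.16 (quasi-likelihood, Benjamini-Hochberg adjustment over all genes tested) on the tumors of the groups compared, with R 4.3.3. Log2 CPM has a prior count of 2, SE is that of the log2 fold change, and called means an adjusted p under 0.05. For ratios to marker lists, two-sided permutation tests over all splits of the tumors (exact, scipy 1.17.1) were used. Alternatives were DESeq2 1.42.0, other scaling, no filter, 1 fit over all intratibial groups, offsets for GC content and length (splines with 5 degrees of freedom), a replicate block and each tumor left out. The fits were tested on simulated counts. The members and lists were chosen with earlier results of these data known. The named genes are the 10 members, list genes that passed the adjusted threshold or stand beside a member, and the 3 genes most alike each member by Pearson's r. Some list genes that passed are given only within counts.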

Additional observations from a re-analysis of the deposited data

How the results depend on the processing

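The number of members called by edgeR moved with the processing, and no called value changed sign under any alternative run. In SC IL-27 against SC control, 3 were called, DESeq2 called 5, offsets for GC content and length left 1, and leaving out 1 tumor gave 1 to 3. The same tumor numbers in both subcutaneous groups did not pair them, with a correlation of 0.0313 between deviations, and the replicate block called 3, or 1 with the GC and length offsets. In D14 cabo against D14 control, 2 were called, with DESeq2 6, without the filter 1, in 1 fit over all intratibial groups 0, and 1 to 2 with a tumor left out. In D14 IL-27+cabo against D14 control, 0 were called, DESeq2 called 2, and leaving out a tumor gave 0 to 2. In EOS control against D14 control, 1 was called, with DESeq2 6, and 0 without the filter, in the 1 fit, and with any tumor left out. In EOS cabo against D14 cabo, 2 were called, with DESeq2 6, and 0 without the filter, in the 1 fit, and with any tumor left out. In EOS IL-27+cabo against D14 IL-27+cabo, 0 were called, DESeq2 called 2 and the 1 fit 1. In EOS cabo against EOS control, 0 were called and DESeq2 called 1. In each of these comparisons DESeq2 also called more of all genes than edgeR. It called 674 higher and 978 lower of 28475 in EOS cabo against D14 cabo. In EOS IL-27+cabo against D14 IL-27+cabo it called 70 higher and 259 lower of 28756. In EOS cabo against EOS control it called 161 higher and 84 lower of 30139. The cause of these shifts was not tested. With 2 or 3 tumors a group, a member that misses the threshold is not shown to be equal between groups.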
